A study of Mus musculus with 12 samples.

Results

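The eicosanoid synthesis enzymes examined were 10 genes. Pla2g4a, Ptgs1, Ptgs2, Ptges, Tbxas1, Alox5, Alox5ap, Lta4h and Ltc4s belong to arachidonate release and to prostanoid and leukotriene synthesis. Pla2g7, listed with them, encodes a secreted hydrolase of platelet-activating factor. They were taken by name, as every probe that the scanner output assigns to these gene symbols, and all 10 were found, with 13 probes, among 35080 named features on the array. Of the 10 genes, 9 were tested in each of the knockdown comparisons. Pla2g7, through the probe that stands for it, was not tested in RAW264.7 cells and Alox5 was not tested in CT-26 cells, because their signals there lay near the array background.

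Total RNA was hybridised to 1-colour Agilent mouse expression arrays, 12 in all, with 3 arrays in each of 4 groups. The groups were RAW264.7 cells in which Abhd5 was silenced (RAW264.7 knockdown), RAW264.7 cells that received the PLKO vector (RAW264.7 control), CT-26 cells primed by the knockdown RAW264.7 cells (knockdown-primed CT-26), and CT-26 cells primed by the vector-carrying RAW264.7 cells (control-primed CT-26). RAW264.7 is a mouse macrophage-like line, CT-26 is a mouse colon carcinoma line, and every CT-26 group had been primed, so no unprimed CT-26 cells enter any comparison. The series asked what lies downstream of macrophage ABHD5, a co-activator of the triglyceride lipase ATGL, and how macrophages with ABHD5 silenced affect tumour cells. The manner of priming, any removal of RAW264.7 cells before RNA extraction and the number of hairpins or clones are not stated. Nor do the labels tell whether a group's 3 samples were separate cultures, so the p-values measure the spread between these samples only, which may be technical.

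Eicosanoids are signalling lipids made from arachidonic acid. Cytosolic phospholipase A2 (Pla2g4a) frees arachidonate from membrane phospholipids, the cyclooxygenases (Ptgs1, constitutive in many cells, and Ptgs2, inducible by inflammatory stimuli) convert it to prostaglandin H2, and terminal synthases such as Ptges and Tbxas1 turn that into prostaglandin E2 and thromboxane A2. On the other branch the lipoxygenase encoded by Alox5, helped by the membrane protein encoded by Alox5ap, makes leukotriene A4, from which Lta4h forms leukotriene B4 and Ltc4s forms leukotriene C4, and macrophages are a well-known source of both classes.

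The probes that rose after Abhd5 knockdown in RAW264.7 cells belong to Ptgs2, Ptges, Alox5 and Ltc4s, and the regions around the transcription starts of these genes are shown. For Ptges only the dimmer probe rose, and the Ltc4s call was close to the threshold. Shared regulation of these genes was not tested. RefSeq promoter sequences were matched for 9 of the 10 genes; Alox5ap had no entry. Each sequence below runs 5′ to 3′ on the gene's strand over the 250 bases before and the first 30 bases after the annotated start (GRCm38.p6), and capitals mark matches to searched motifs.
Ptgs2, chr1:150099781-150100060, plus strand: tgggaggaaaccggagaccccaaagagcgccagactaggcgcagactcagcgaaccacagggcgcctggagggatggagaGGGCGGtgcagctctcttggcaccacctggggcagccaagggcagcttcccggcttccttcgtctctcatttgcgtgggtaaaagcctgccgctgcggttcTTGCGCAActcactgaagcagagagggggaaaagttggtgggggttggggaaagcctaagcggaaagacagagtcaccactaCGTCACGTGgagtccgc
Ptges, chr2:30903268-30903547, minus strand: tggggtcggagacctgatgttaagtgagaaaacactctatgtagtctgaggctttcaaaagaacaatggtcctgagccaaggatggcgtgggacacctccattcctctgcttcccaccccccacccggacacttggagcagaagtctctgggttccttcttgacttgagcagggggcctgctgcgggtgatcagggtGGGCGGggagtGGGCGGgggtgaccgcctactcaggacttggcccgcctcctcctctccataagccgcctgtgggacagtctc
Alox5, chr6:116461149-116461428, minus strand: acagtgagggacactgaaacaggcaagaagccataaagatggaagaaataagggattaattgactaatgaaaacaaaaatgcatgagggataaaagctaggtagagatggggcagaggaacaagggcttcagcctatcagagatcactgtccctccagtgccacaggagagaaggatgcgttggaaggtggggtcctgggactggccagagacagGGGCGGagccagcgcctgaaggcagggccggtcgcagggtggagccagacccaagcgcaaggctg
Ltc4s, chr11:50238503-50238782, minus strand: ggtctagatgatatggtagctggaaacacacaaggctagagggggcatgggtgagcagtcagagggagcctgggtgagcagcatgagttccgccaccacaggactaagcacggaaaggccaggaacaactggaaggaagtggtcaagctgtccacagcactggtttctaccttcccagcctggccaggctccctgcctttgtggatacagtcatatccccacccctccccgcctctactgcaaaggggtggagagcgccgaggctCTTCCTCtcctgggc

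The motifs searched on both strands were the E-box CACGTG, the CRE half-site TGACG, the palindromic C/EBP motif TTGCGCAA, an NF-kB motif, the AP-1 motif TGANTCA, the GC box GGGCGG, the PU.1 motif GAGGAAG and the TATA box TATAAA. The Ptgs2 window held 1 match each to the C/EBP motif, the GC box, the E-box and the CRE half-site. The last 2 overlap in the capitals CGTCACGTG and lie after the annotated start, with first bases at 17 for the E-box and 14 for the CRE half-site. Among 32851 promoter windows of the same length, 0.2% held the C/EBP motif, 6.8% the E-box and 19.9% the CRE half-site. GC boxes stood in the Ptges window (2 matches) and the Alox5 window (1 match), as in 34.7% of all windows. The Ltc4s window held 1 PU.1 match, as did 12.2%, and its first base lies at 16 after the annotated start. None of the 4 windows held the NF-kB, AP-1 or TATA letters, found in 1.4%, 7.5% and 13.1% of windows. Each motif was searched as a fixed letter pattern, within these windows only. Variant forms of the sites, and sites outside the windows, were not searched. The absence of these letters therefore cannot tell whether the genes, Ptgs2 included, lack NF-kB, AP-1 or TATA sites. No motif in the list was held by all 4 windows.

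All levels are log2 processed signals relative to the 75th percentile of the array, so 0 is that percentile, and levels are compared only within a probe. Spots well above background made up between 69.0% and 73.0% of each RAW264.7 knockdown array, against 56.5%, 57.9% and 72.7% on the RAW264.7 control arrays, and between 59.3% and 67.0% of knockdown-primed CT-26 arrays, against 68.3% to 77.3% of control-primed ones. Slide 1 carried RAW264.7 control replicates 1 and 2 alone, slide 2 carried the third control and all 3 knockdown arrays, and slide 3 carried all 6 CT-26 arrays. Abhd5 itself stood at 0.23, 0.22 and 0.39 in RAW264.7 knockdown cells and at 1.37, 1.91 and 1.52 in controls (change -1.32 ± 0.20 SE, limma adjusted p = 0.00341, or 0.0541 in a fit that blocks on slide). Another Abhd5 probe gave -1.29 (limma adjusted p over probes = 0.0160), and a further one gave -0.78 and did not pass (0.0774). All 13 macrophage markers were well above background on every RAW264.7 array, with summed levels of 319 to 368 after knockdown and 315 to 364 in controls. Single markers differed more than the sum. Adgre1 averaged 3.31 after knockdown and 0.45 in controls, Mpeg1 averaged 3.02 after knockdown and 0.25 in controls, and Lyz2 averaged 5.53 after knockdown and 3.65 in controls. Ptprc, Cd14, Spi1 and Tyrobp also averaged higher after knockdown, by less. Csf1r (2.12 against 2.46 in controls), Coro1a (4.50 against 5.13), Cd68, Itgam, Fcer1g and Laptm5 averaged lower after knockdown. In CT-26 cells 9 of the 13 macrophage markers were well above background on all knockdown-primed arrays and 10 on all control-primed arrays, with summed levels of 56.5 to 75.02 after knockdown priming and 55.4 to 61.0 after control priming. Itgam, with means of 5.76 after knockdown priming and 5.60 after control priming, made up most of these sums, which add linear signals. Others were far dimmer in the same order, such as Cd14 (2.22 and 2.07), Lyz2 (-4.64 and -4.39) and Fcer1g (-4.52 and -4.05). Adgre1 and Spi1 were well above background on none of the 6 CT-26 arrays. Of 8 epithelial markers 6 were well above background on all arrays of each CT-26 group, and Cdh1 on none. The same held in RAW264.7 knockdown cells, so this count does not set CT-26 cells apart. Summed epithelial levels were 4.83 to 6.64 in knockdown-primed and 5.44 to 8.16 in control-primed CT-26 cells. Of 7 fibroblast markers 6 were well above background on all arrays of each CT-26 group. Their summed levels were 65.9 to 81.6 after knockdown priming and 61.8 to 64.7 after control priming. The part of these markers in the members' values was not tested. In bulk RNA, a difference in cell number and one in RNA per cell cannot be told apart.

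In RAW264.7 cells Abhd5 knockdown was accompanied by higher signals of the inducible cyclooxygenase Ptgs2 (4.25-fold), the lipoxygenase Alox5 (2.68-fold) and the leukotriene C4 synthase Ltc4s (1.63-fold), and of 1 of the 2 probes of the prostaglandin E synthase Ptges (6.33-fold). No member fell past the threshold. Of 9 tested members 3 rose, none fell and 6 did not pass, whereas 23% of all 25459 genes tested passed, 7.94% higher and 15.1% lower. That split moved with the scaling, with 2022 genes higher and 3834 lower here, 2442 and 1320 with median centring, 2186 and 1869 after quantile normalisation and 1741 and 5852 after normexp, while each of these gave the same count of 3 members. Blocking on slide left 1 of the 3 calls, that of Ptgs2, and 2 members passed without the filter on dim probes or with the replicate numbers as a block. The median change of the 9 was 0.08, against -0.30 for all genes tested.

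**Figure D1:**
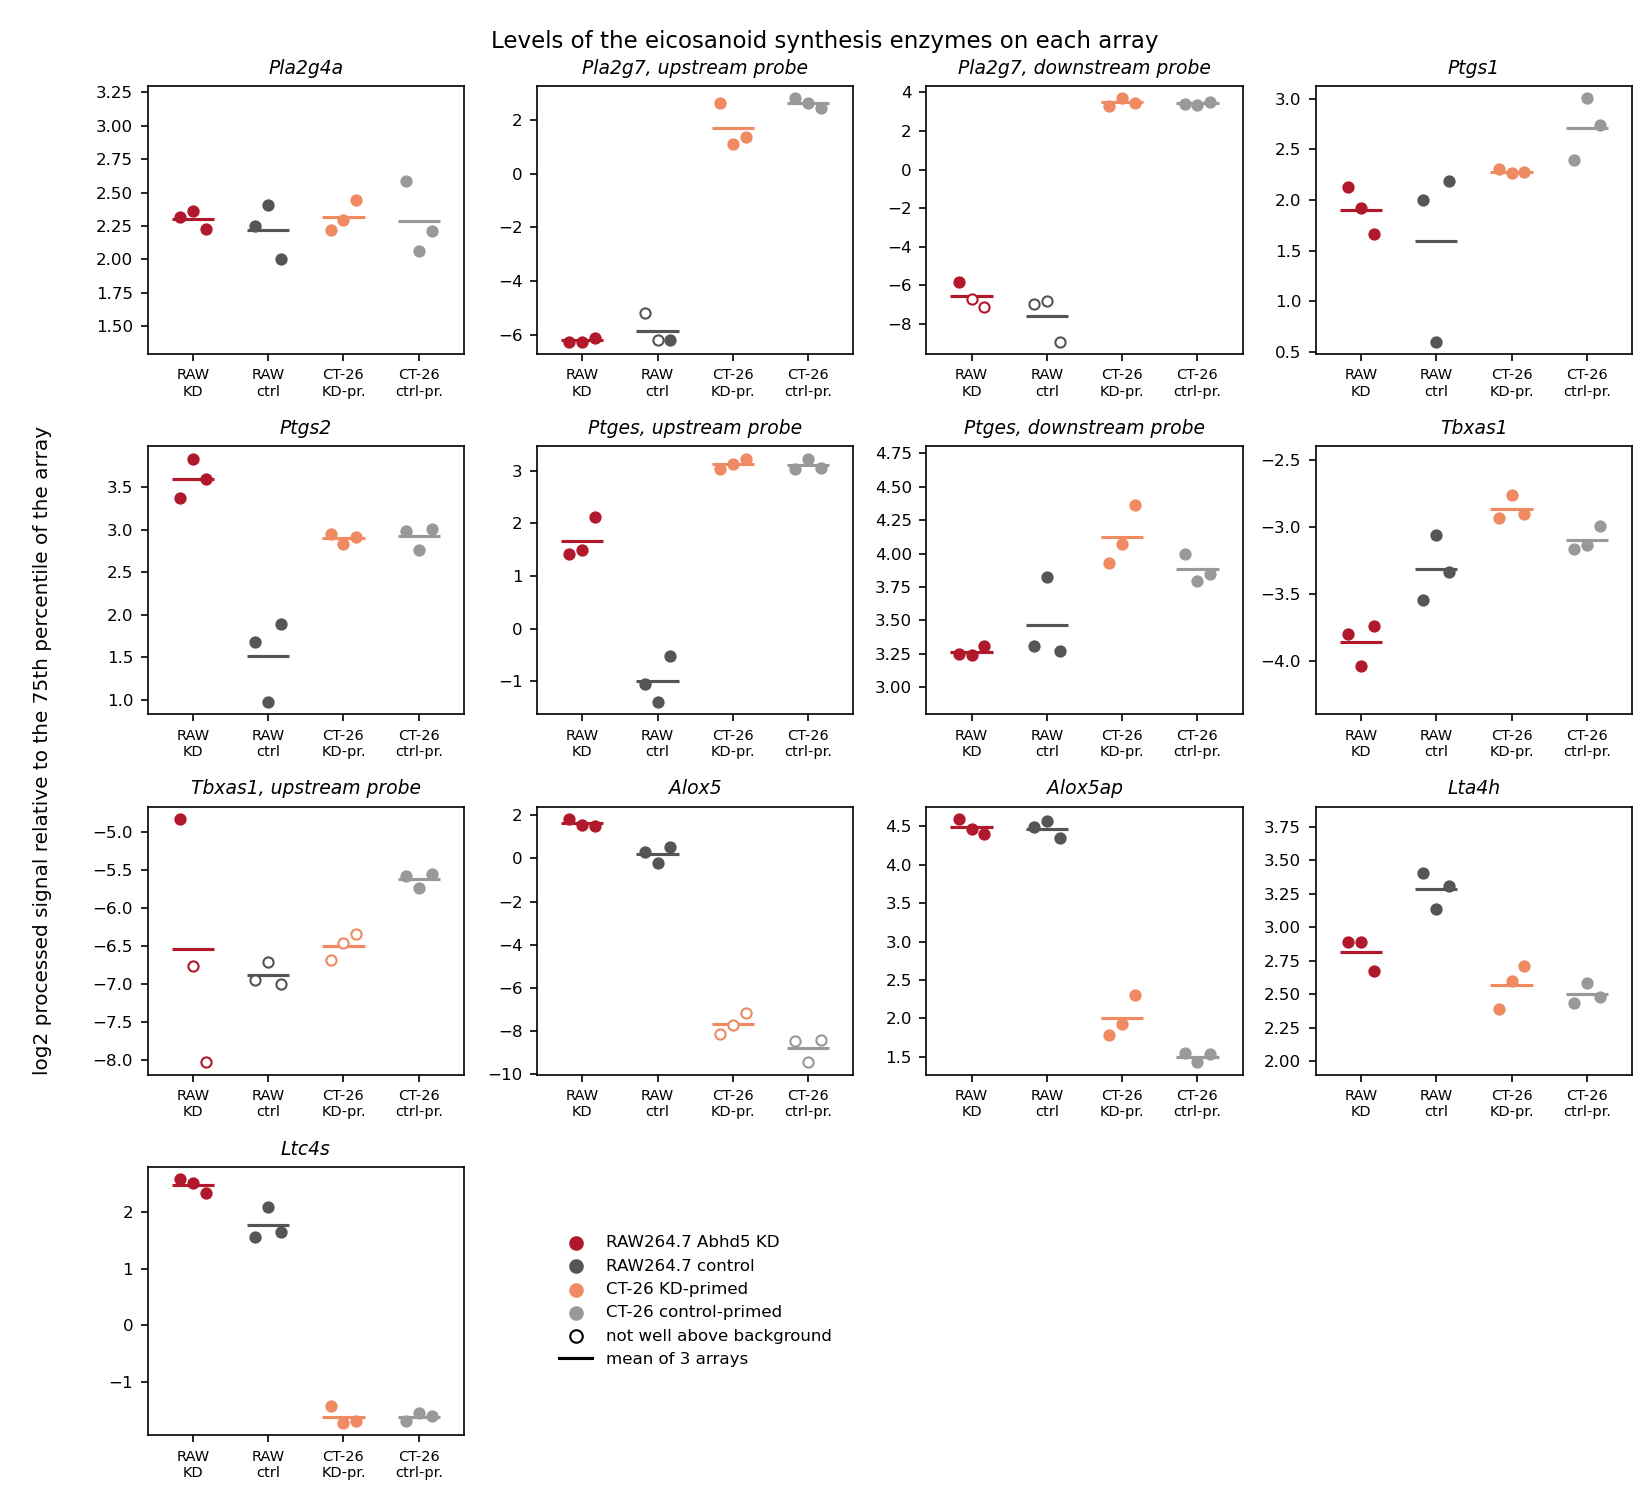
Log2 level of each of the 13 probes on each array (vertical axis, relative to the array's 75th percentile) in the 4 groups, with 3 points a group and a bar at the mean. Open points were not well above background; the Ptgs2, Alox5 and upstream Ptges points of RAW264.7 knockdown cells all lie above those of RAW264.7 controls, and Alox5 is open in all 6 CT-26 samples.

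Among the enzymes acting on phospholipids, Pla2g4a had overlapping levels in all 4 groups. Its probe (chr1:151676814-151676873, minus strand, mm9 as in the files) ranged between 2.23 and 2.36 in RAW264.7 knockdown cells and between 2.01 and 2.40 in controls, a change of 0.08 (95% interval -0.33 to 0.49, limma adjusted p = 0.743). In CT-26 cells it ranged between 2.22 and 2.45 after knockdown priming and between 2.06 and 2.58 after control priming, a change of 0.03 (-0.37 to 0.44, adjusted p = 0.914).

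Pla2g7, the secreted hydrolase of platelet-activating factor, was bright in CT-26 cells and near background in RAW264.7 cells. Its downstream probe (chr17:43749032-43749091, plus strand) read 3.31, 3.70 and 3.45 in knockdown-primed CT-26 cells and 3.39, 3.37 and 3.53 in control-primed cells (change 0.06, 95% interval -0.31 to 0.43, adjusted p = 0.821). The upstream probe (chr17:43731745-43731804) read 2.64, 1.10 and 1.36 in knockdown-primed cells against 2.82, 2.66 and 2.46 in control-primed cells, a change of -0.94 ± 0.35 (SE) that did not pass (adjusted p over probes = 0.123). Replicate 1 of the knockdown-primed cells lay within the control-primed range and the other 2 lay below it, and without that replicate the probe passed (-1.41, adjusted p = 0.0141). In RAW264.7 cells the downstream probe read -5.85, -6.71 and -7.12 after knockdown, where 1 of 3 arrays was well above background, and -6.96, -6.82 and -8.92 in controls, where none was. The upstream probe ranged between -6.26 and -6.13 after knockdown and between -6.18 and -5.17 in controls, where 1 of 3 arrays was well above background (change -0.37, adjusted p over probes = 0.337). That change passed after normexp (-0.71, adjusted p = 0.0418) and was -0.03 without control replicate 1 or when blocking on slide. The Pla2g7 probes thus gave different values in CT-26 cells, and the files do not tell which transcripts each reads.

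Ptgs1, the constitutive cyclooxygenase (chr2:36107644-36107703, plus strand), read 2.13, 1.93 and 1.66 in RAW264.7 knockdown cells and 2.0, 0.60 and 2.19 in controls. Control replicate 2 stood far below the other controls, and the groups overlapped. The change was 0.31 (95% interval -0.58 to 1.20, adjusted p = 0.554), and it was -0.19 without that replicate. In CT-26 cells Ptgs1 read 2.31, 2.26 and 2.27 after knockdown priming and 2.39, 3.01 and 2.74 after control priming. All 3 knockdown-primed values lay below the control-primed ones, by -0.43 ± 0.18 (SE). The difference did not pass (limma adjusted p = 0.152).

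Ptgs2, the inducible cyclooxygenase (chr1:151954744-151954803, plus strand), read 3.37, 3.84 and 3.59 in RAW264.7 knockdown cells and 1.68, 0.97 and 1.88 in controls. Every knockdown array lay above every control array by more than 1 log2 unit, and it rose by 2.09 ± 0.26 (SE, 95% interval 1.48 to 2.69, limma adjusted p = 0.00145). Against the single control array of slide 2, whose own spread has to be taken from the knockdown arrays, the change was 1.71 (adjusted p = 0.0140, and 0.0273 in a fit of all 6 arrays that blocks on slide). The call held under every other setting run and with each array left out, where the change lay between 1.82 and 2.27. In CT-26 cells the same probe read 2.94, 2.83 and 2.92 after knockdown priming and 2.98, 2.77 and 3.01 after control priming, a change of -0.02 (95% interval -0.36 to 0.32, adjusted p = 0.931). The change in RAW264.7 cells exceeded that in CT-26 cells by 2.11 ± 0.31 (SE, adjusted p = 0.00107 over all genes).

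Ptges, the inducible prostaglandin E synthase that works with Ptgs2, was read by 2 probes that disagreed in RAW264.7 cells. They lie 3.16 kb apart on the minus strand of chromosome 2, and the sequence of each is given since the reading depends on it. The downstream probe is given by its last 30 bases, with the hexamer ATTAAA, a known variant of the polyadenylation signal, in capitals.
Ptges upstream probe, chr2:30748214-30748273 (mm9): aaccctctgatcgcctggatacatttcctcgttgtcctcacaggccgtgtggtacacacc
Ptges downstream probe, chr2:30744995-30745054 (mm9), last 30 bases: agtcagccccaATTAAAtgctttcctttat

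Of the 3 forward reading frames, 2 are free of stop codons in the 60 bases of the upstream probe and 0 in those of the downstream probe. Both probes carry the same RefSeq transcript in the array annotation, and the further transcripts listed differ in part.

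The upstream Ptges probe read 1.42, 1.49 and 2.11 in RAW264.7 knockdown cells and -1.05, -1.39 and -0.52 in controls, with no overlap. It rose by 2.66 ± 0.28 (SE, 95% interval 2.02 to 3.31, limma adjusted p = 6.21e-04 over 37196 probes, of which 21.1% passed). Within slide 2 the change was 2.19 (adjusted p = 0.0187, and 0.0101 blocking on slide), and leaving out single arrays gave 2.44 to 2.90. The brighter downstream probe read 3.25, 3.24 and 3.31 in knockdown cells and 3.31, 3.83 and 3.27 in controls. Its groups overlapped and it did not pass (-0.20, 95% interval -0.66 to 0.26, adjusted p = 0.449), and the sign turned with median centring (0.03) and quantile normalisation (0.07). Since the brightest probe stood for a gene, Ptges is counted among the 6 members that did not pass.

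In CT-26 cells neither Ptges probe passed. The upstream probe read 3.03, 3.12 and 3.23 after knockdown priming and 3.03, 3.23 and 3.05 after control priming (change 0.02, 95% interval -0.33 to 0.37). The downstream probe read 3.93, 4.07 and 4.36 after knockdown priming and 4.0, 3.79 and 3.85 after control priming (change 0.24, 95% interval -0.14 to 0.62, adjusted p = 0.354). For the upstream probe the RAW264.7 change exceeded the CT-26 change by 2.64 ± 0.34 (SE, adjusted p = 5.31e-04 over probes, of which 27% passed), and for the downstream probe the difference was -0.44 ± 0.26 (adjusted p = 0.195).

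Tbxas1, the thromboxane A synthase (chr6:39034356-39034415, plus strand), was dim in all groups. It read -3.80, -4.04 and -3.74 in RAW264.7 knockdown cells and -3.54, -3.06 and -3.34 in controls. The knockdown values all lay below the controls, but the change of -0.54 ± 0.20 (SE) did not pass (limma adjusted p = 0.0718). In CT-26 cells it read -2.93, -2.76 and -2.90 after knockdown priming and -3.16, -3.13 and -2.99 after control priming, a change of 0.23 ± 0.15 (SE, adjusted p = 0.318) with no overlap. These opposite shifts differed by -0.77 ± 0.23 (SE, adjusted p = 0.0273). That call did not hold with median centring (-0.59, adjusted p = 0.0666), when blocking on slide (-0.75, adjusted p = 0.120) or without RAW264.7 knockdown replicate 2, control-primed CT-26 replicates 1 or 2 or knockdown-primed CT-26 replicate 2 (adjusted p up to 0.0669).

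A second Tbxas1 probe (chr6:38902132-38902191) matches a single cDNA clone in the array annotation, and control-primed CT-26 cells were the only group in which all 3 arrays detected it well above background. It read -6.68, -6.46 and -6.34 on knockdown-primed arrays, all not well above background, and -5.58, -5.74 and -5.56 on control-primed arrays. The fitted change of -0.87 (adjusted p = 0.0232 over probes, of which 6.67% passed) carries no fold, because the lowest signal well above background on the knockdown-primed arrays exceeds the control-primed level. After normexp background correction the same probe gave 0.17.

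Platelets make thromboxane through Ptgs1 and Tbxas1, and the summed level of platelet and megakaryocyte markers differed between the RAW264.7 groups. It was 11.3 to 14.0 in knockdown cells and 0.387 to 0.534 in controls. These sums add linear signals, and Pf4, with a mean of 3.6 after knockdown and -2.06 in controls, made up most of the knockdown sum. Gp9 averaged -3.05 after knockdown and -4.22 in controls, and Ppbp averaged -2.55 and -7.36. Of the 5 genes, 4 were well above background on all knockdown arrays and 2 on all control arrays. Such counts depend on the array as well, since the dimmest signal well above background was higher on control replicates 1 and 2. The integrin gene Itga2b averaged -3.36 after knockdown and -2.83 in controls, and Gp1ba was well above background on 2 of 3 knockdown arrays and 1 of 3 control arrays. The part of these markers in the Tbxas1 and Ptgs1 values was not tested.

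Alox5, the 5-lipoxygenase (chr6:116360326-116360385, minus strand), read 1.83, 1.54 and 1.51 in RAW264.7 knockdown cells and 0.28, -0.20 and 0.55 in controls. The groups did not overlap, and it rose by 1.42 ± 0.23 (SE, 95% interval 0.90 to 1.95, limma adjusted p = 0.00501). Within slide 2 the change was 1.08, with an adjusted p of 0.0389 on that slide's 4 arrays, but it did not pass in the fit of all 6 that blocks on slide (adjusted p = 0.0909). Leaving out single arrays gave 1.22 to 1.59, all past the threshold. In CT-26 cells Alox5 was not well above background on any array (means of -7.69 ± 0.50 after knockdown priming and -8.78 ± 0.58 after control priming, SD, n = 3), so the difference between the cell lines' changes was not read for it.

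Alox5ap, which encodes the protein that presents arachidonate to the 5-lipoxygenase (chr5:150099347-150099406, plus strand), did not pass in either cell line. It read 4.60, 4.47 and 4.40 after knockdown and 4.49, 4.57 and 4.35 in controls, with a change of 0.02 (95% interval -0.37 to 0.41, adjusted p = 0.936), or 0.44 after quantile normalisation, which did not pass either. In CT-26 cells it read 1.78, 1.93 and 2.31 after knockdown priming and 1.55, 1.43 and 1.54 after control priming. Every knockdown-primed array lay above every control-primed one, by 0.50 ± 0.18 (SE, 1.42-fold). The difference did not pass (limma adjusted p = 0.104). Under the other settings its adjusted p lay between 0.0641 and 0.156, and with single arrays left out between 0.0602 and 0.258.

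Lta4h, which makes leukotriene B4 (chr10:92947503-92947562, plus strand), read 2.89, 2.89 and 2.68 in RAW264.7 knockdown cells and 3.41, 3.14 and 3.31 in controls. The knockdown values lay below the controls without overlap, by -0.47 ± 0.18 (SE), and did not pass (limma adjusted p = 0.0782). It passed without control replicate 2 (-0.54, adjusted p = 0.0467) and with a mean-variance trend (adjusted p = 0.0461), whereas median centring and quantile normalisation gave -0.23 each (adjusted p = 0.446 and 0.280). In CT-26 cells Lta4h ranged between 2.39 and 2.72 after knockdown priming and between 2.43 and 2.59 after control priming (change 0.07, 95% interval -0.28 to 0.42, adjusted p = 0.780).

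Ltc4s, which makes leukotriene C4 (chr11:50049974-50050031, minus strand), read 2.58, 2.52 and 2.33 in RAW264.7 knockdown cells and 1.56, 2.10 and 1.65 in controls. The groups did not overlap, and it rose by 0.71 ± 0.20 (SE, 95% interval 0.25 to 1.17, limma adjusted p = 0.0403). This call was close to the threshold. Within slide 2 the change was 0.83 (adjusted p = 0.0615, and 0.188 blocking on slide), and the adjusted p was 0.0532 with the replicate numbers as a block and 0.0863 without the filter on dim probes. Leaving out any single array except control replicate 2 lost the call as well, with adjusted p up to 0.123. In CT-26 cells it ranged between -1.73 and -1.44 after knockdown priming and between -1.70 and -1.55 after control priming (change -0.00310, 95% interval -0.35 to 0.35). The RAW264.7 change exceeded the CT-26 change by 0.71 ± 0.24 (SE, adjusted p = 0.0448), and the adjusted p was 0.104 blocking on slide and up to 0.0924 with single arrays left out.

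Mast cells are another source of 5-lipoxygenase products. Of 6 mast cell markers, 2 were well above background on all RAW264.7 knockdown arrays and 0 on all control arrays, with summed levels of 0.218 to 0.452 after knockdown and 0.126 to 0.165 in controls. Tpsb2 averaged -1.78 after knockdown and -4.21 in controls, and Cma1, the other of the 2, averaged -5.555 after knockdown and -5.12 in controls. The dimmest signal well above background was -4.81 and -4.62 on control replicates 1 and 2. It was -6.33 or lower on control replicate 3 and the knockdown arrays, so counts of detected markers depend on the array as well. The defining markers Cpa3 and Fcer1a were well above background on none of the 6 RAW264.7 arrays, and Kit on none of the 3 knockdown arrays. The part of these markers in the Alox5 and Ltc4s values was not tested.

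**Figure D2:**
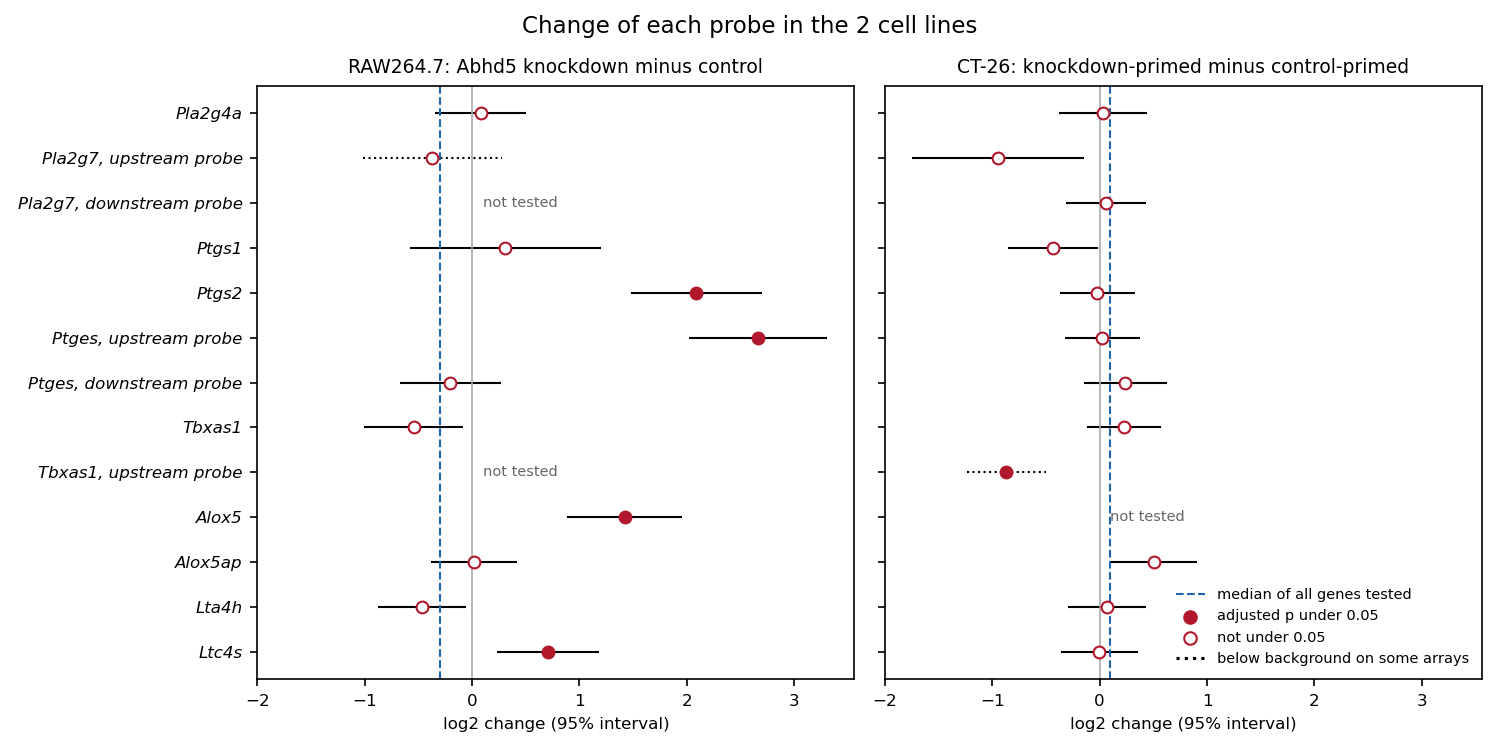
Log2 change of each of the 13 probes with its 95% interval (horizontal axis) in RAW264.7 cells, knockdown minus control, and in CT-26 cells, knockdown-primed minus control-primed. Filled points passed an adjusted p of 0.05 over all probes, dotted intervals had arrays below background, and the dashed line is the median of all genes tested; the 4 filled RAW264.7 points are Ptgs2, the upstream Ptges probe, Alox5 and Ltc4s, and the 1 filled CT-26 point is the dim second Tbxas1 probe.

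Taking the comparison of primed CT-26 cells as a whole, none of the 9 tested members passed by limma, while 6.19% of 24996 genes tested did (2.92% higher, 3.28% lower). The 729 genes higher and 819 lower became 1085 and 652 with median centring and 1184 and 652 after normexp, with no member passing in either. At an unadjusted p under 0.05 there were 2, Alox5ap higher and Ptgs1 lower. The median change of the 9 was 0.06, against 0.10 for all genes. The difference between the cell lines' changes was read for the 8 members measured in both, of which 3 passed. Ptgs2 and Ltc4s had the higher change in RAW264.7 cells, and Tbxas1 gave -0.54 there and 0.23 in CT-26 cells, neither passing by itself. Of all 27072 genes 31% passed (7.49% higher, 23.5% lower). The 2027 genes higher and 6352 lower became 2384 and 4155 with median centring, 2758 and 3901 after quantile normalisation and 1694 and 10596 after normexp.

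The order of the groups differed between members. Ptgs2 was highest in RAW264.7 knockdown cells (mean 3.6 ± 0.23, SD, n = 3), followed by knockdown-primed (2.90 ± 0.06) and control-primed CT-26 cells (2.92 ± 0.13), which did not differ beyond their spread, and RAW264.7 controls (1.51 ± 0.48). The upstream Ptges probe was highest in both CT-26 groups (3.13 ± 0.10 knockdown-primed, 3.1 ± 0.11 control-primed), lower in RAW264.7 knockdown cells (1.67 ± 0.38) and lowest in RAW264.7 controls (-0.99 ± 0.44). Ltc4s had the 2 cell lines in the other order, with both CT-26 groups at -1.62, below RAW264.7 knockdown cells (2.48 ± 0.13) and RAW264.7 controls (1.77 ± 0.29).

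Between RAW264.7 controls and control-primed CT-26 cells, 7 of 10 members passed, near the 71.9% of all genes that did (45.3% higher, 26.6% lower; 71.1% of probes). Higher in RAW264.7 controls were the leukotriene enzymes: Ltc4s by 3.39 ± 0.17 (SE, log2), Alox5ap by 2.97 ± 0.16, Lta4h by 0.79 ± 0.15 and Alox5 at least 118-fold. Lower in RAW264.7 controls were Ptgs2 by -1.41 ± 0.22, Ptgs1 by -1.12 ± 0.34 and Pla2g7 at least 445-fold, while the upstream Ptges probe gave -4.09 ± 0.24 (adjusted p = 1.57e-08) and the downstream probe -0.41 ± 0.18 (adjusted p = 0.0559). These bounds set the detected group's mean against a mean, in the other group, of whichever was higher on each array, the probe's own signal or the dimmest signal there that passed as well above background. After normexp the fitted changes were 5.69 for Alox5 and -8.38 for Pla2g7 on the log2 scale, below the bounds' 6.89 and 8.80. The limma adjusted p of the 7 was at most 0.00979. With slide as a random block all 7 still passed, but each cell line had slides of its own, so slide and cell line cannot be told apart. The Lta4h call was lost after quantile normalisation (0.17, adjusted p = 0.228) and that of Ptgs1 with median centring (-0.93, adjusted p = 0.0531). The Ptgs1 difference was -0.62 without RAW264.7 control replicate 2 (adjusted p = 0.0158). Calls were gained by the downstream Ptges probe after quantile normalisation (-1.10, adjusted p = 4.26e-05), after normexp (-0.49, adjusted p = 0.0182), with a mean-variance trend (adjusted p = 0.0379), without RAW264.7 control replicate 2 (-0.59, adjusted p = 0.00615) and without knockdown-primed CT-26 replicate 3 (adjusted p = 0.0475). Pla2g4a gained a call after quantile normalisation (-0.55, adjusted p = 0.0145), against -0.07 here.

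**Figure D3:**
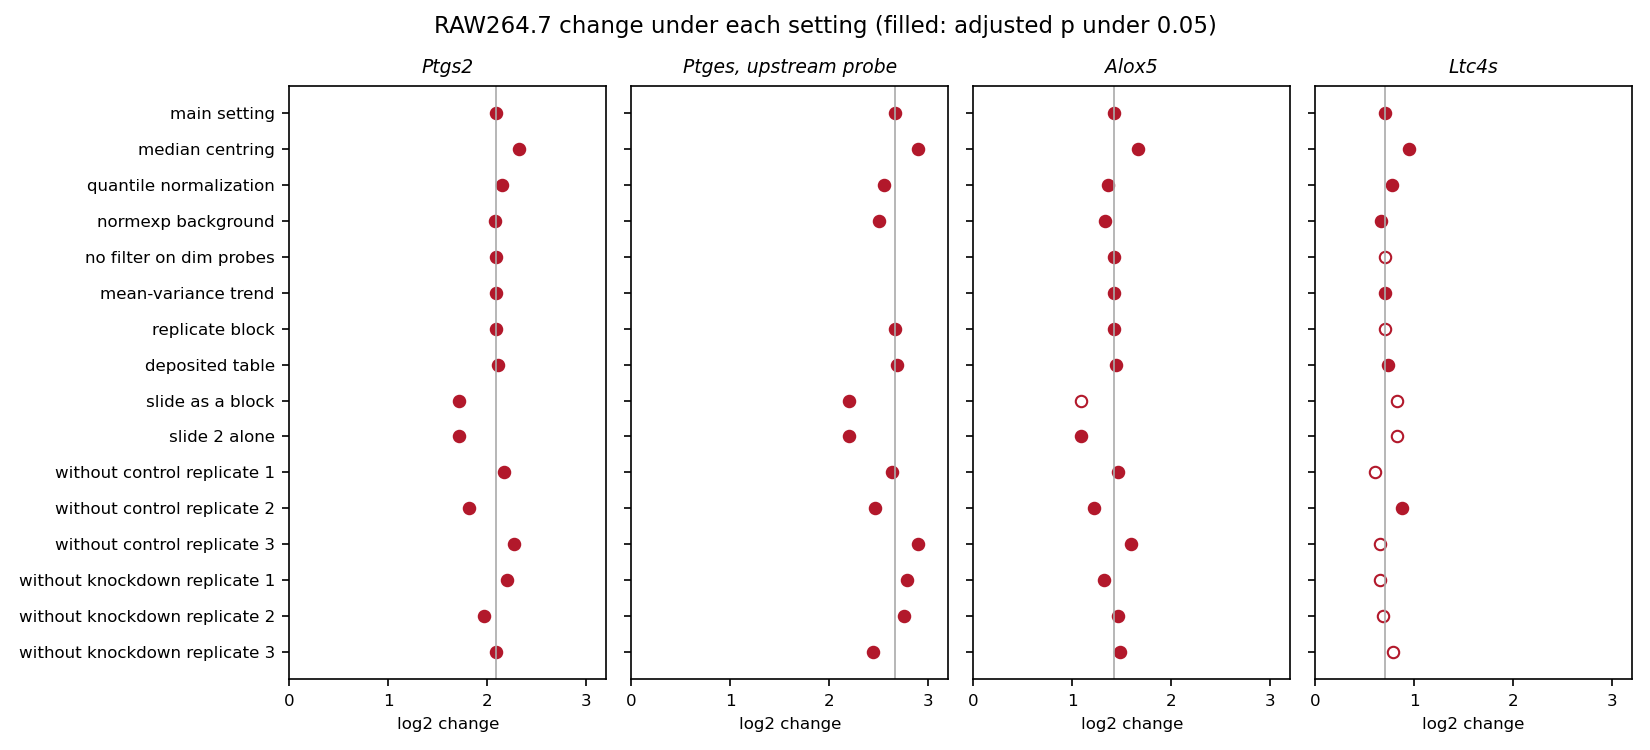
Log2 change in RAW264.7 cells, knockdown minus control (horizontal axis), of the 4 probes that passed, under each setting and with each array left out (rows). Filled points passed an adjusted p of 0.05; Ptgs2 and the upstream Ptges probe are filled in every row run, Alox5 is open in 1 row (slide as a block), and Ltc4s is open in most rows.

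The wider pathway was read from 7 lists with 76 further genes. In RAW264.7 cells 58 of them were tested, of which 14 rose and 15 fell after knockdown, where 7.94% of all genes rose and 15.1% fell, with a median change of -0.24 against -0.30 for all genes. With the slide as a block 8 rose and 2 fell, where 4.61% of all genes passed (893 higher, 280 lower). Median centring gave 14 higher and 7 lower, where 2442 and 1320 of all genes passed. Quantile normalisation gave 13 and 9 (2186 and 1869 of all genes), and normexp gave 12 and 19 (1741 and 5852). The split of all genes thus moved with the setting too. In CT-26 cells 52 were tested, of which 2 rose and none fell, where 2.92% of all genes rose and 3.28% fell.

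Among other arachidonate-releasing lipases, 2 of 11 tested genes rose and 2 fell in RAW264.7 cells. Pla2g2d, a secreted phospholipase A2, was not well above background on any control array. It averaged -3.24 ± 0.33 (SD, n = 3) after knockdown, at least 4.39-fold higher (limma adjusted p = 9.92e-05). Its change after normexp was 1.54 on the log2 scale, which is smaller than that bound. Pla2g2e, of the same secreted family, rose by 0.64 ± 0.16 (SE). The monoacylglycerol lipase Mgll fell by 0.80 and Pla2g4b by 0.70, and of these 4 calls Pla2g2d alone passed when blocking on slide.

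Of 9 genes of arachidonate supply and re-esterification, 2 rose and none fell. Acsl4, the acyl-CoA ligase that prefers arachidonate, averaged 0.69 ± 0.17 after knockdown and -0.94 ± 0.28 in controls (SD, n = 3), a rise of 1.63 ± 0.20 (SE, limma adjusted p = 0.00135). Lpcat2, a lyso-phospholipid acyltransferase that also makes platelet-activating factor, averaged -1.23 ± 0.09 after knockdown and -2.35 ± 0.26 in controls, a rise of 1.12 ± 0.19 (adjusted p = 0.00662). Both passed when blocking on slide. The desaturase Fads2 gave -0.61 (adjusted p = 0.0521).

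Among 7 tested further prostanoid synthases 1 rose and 2 fell. Hpgds, the haematopoietic prostaglandin D synthase, averaged -2.45 ± 0.40 after knockdown and -6.18 ± 0.65 in controls (SD, n = 3), where 1 of 3 arrays was well above background, and rose by 3.74 ± 0.34 (SE, adjusted p = 2.44e-04), or 1.99 after normexp. Prxl2b, a prostamide and prostaglandin F synthase, averaged -1.35 ± 0.14 after knockdown and 0.81 ± 0.24 in controls and fell by 2.16 (adjusted p = 2.20e-04). Akr1b3, an aldose reductase with prostaglandin F synthase activity, fell by 0.64, a call lost when blocking on slide. The other prostaglandin E synthases, Ptges2 and Ptges3, gave -0.35 (adjusted p = 0.159) and -0.52 (adjusted p = 0.0614).

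No other lipoxygenase or epoxide enzyme rose in RAW264.7 cells and 4 of 6 tested genes fell, where 15.1% of all genes tested fell. Cyp2s1 averaged -5.01 ± 0.04 after knockdown and -3.25 ± 0.29 in controls (SD, n = 3) and fell by 1.76 (adjusted p = 7.33e-04, 0.00774 blocking on slide). Alox15, Aloxe3 and Alox12b, other lipoxygenases, fell by 0.90, 0.93 and 0.65, and each of these calls was lost when blocking on slide. Alox12b averaged -5.19 in controls, where 1 of 3 arrays was well above background. The 4 genes that fell were dim, with group means between -5.84 for Alox12b after knockdown and -3.07 for Aloxe3 in controls.

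Of 7 tested genes of leukotriene processing 2 rose and 2 fell. Dpep2, a dipeptidase that converts leukotriene D4 to E4, averaged 3.01 ± 0.09 after knockdown and 1.64 ± 0.27 in controls (SD, n = 3), a rise of 1.37 ± 0.19 (SE, adjusted p = 0.00262, 0.0514 blocking on slide). Mgst3, a membrane glutathione transferase, fell by 0.95 (adjusted p = 0.00633, 0.0700 blocking on slide), and Ggt5, which cleaves leukotriene C4, fell by 0.94 (0.258 as adjusted p when blocking on slide). Mgst1 was not well above background on any control array and was at least 1.11-fold higher after knockdown.

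In the list of inactivation and transport, 4 of 9 tested genes rose and 1 fell. Cyp4f18, a leukotriene B4 hydroxylase, rose by 1.63 ± 0.24 (SE, adjusted p = 0.00356, 0.0420 blocking on slide). Ptgr1, which inactivates leukotriene B4 and prostaglandins, rose by 0.98 ± 0.17 (adjusted p = 0.00680) and Cbr3, a carbonyl reductase, by 0.92 ± 0.22. Neither Ptgr1 nor Cbr3 passed when blocking on slide.

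Receptors for eicosanoids and platelet-activating factor split, with 3 of 9 tested genes higher and 4 lower after knockdown. Ptger2, a prostaglandin E2 receptor, was not well above background on any RAW264.7 control array and averaged -1.55 ± 0.57 (SD, n = 3) after knockdown, at least 14.2-fold higher (adjusted p = 2.28e-04), though its change after normexp was 3.39 on the log2 scale, which is smaller than that bound. Ptafr, the receptor of platelet-activating factor, averaged -0.05 ± 0.32 after knockdown and -3.20 ± 0.12 in controls and rose by 3.16 ± 0.21 (SE, adjusted p = 4.5e-05, and 8.1e-04 blocking on slide). Cysltr1, a receptor of cysteinyl leukotrienes, averaged -2.37 ± 0.08 after knockdown and -1.21 ± 0.33 in controls and fell by 1.16 (adjusted p = 0.00820, 0.139 blocking on slide). The prostacyclin receptor Ptgir and the prostaglandin E2 receptor Ptger4 fell by 1.51 and 1.18, also without passing in that fit.

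**Figure D4:**
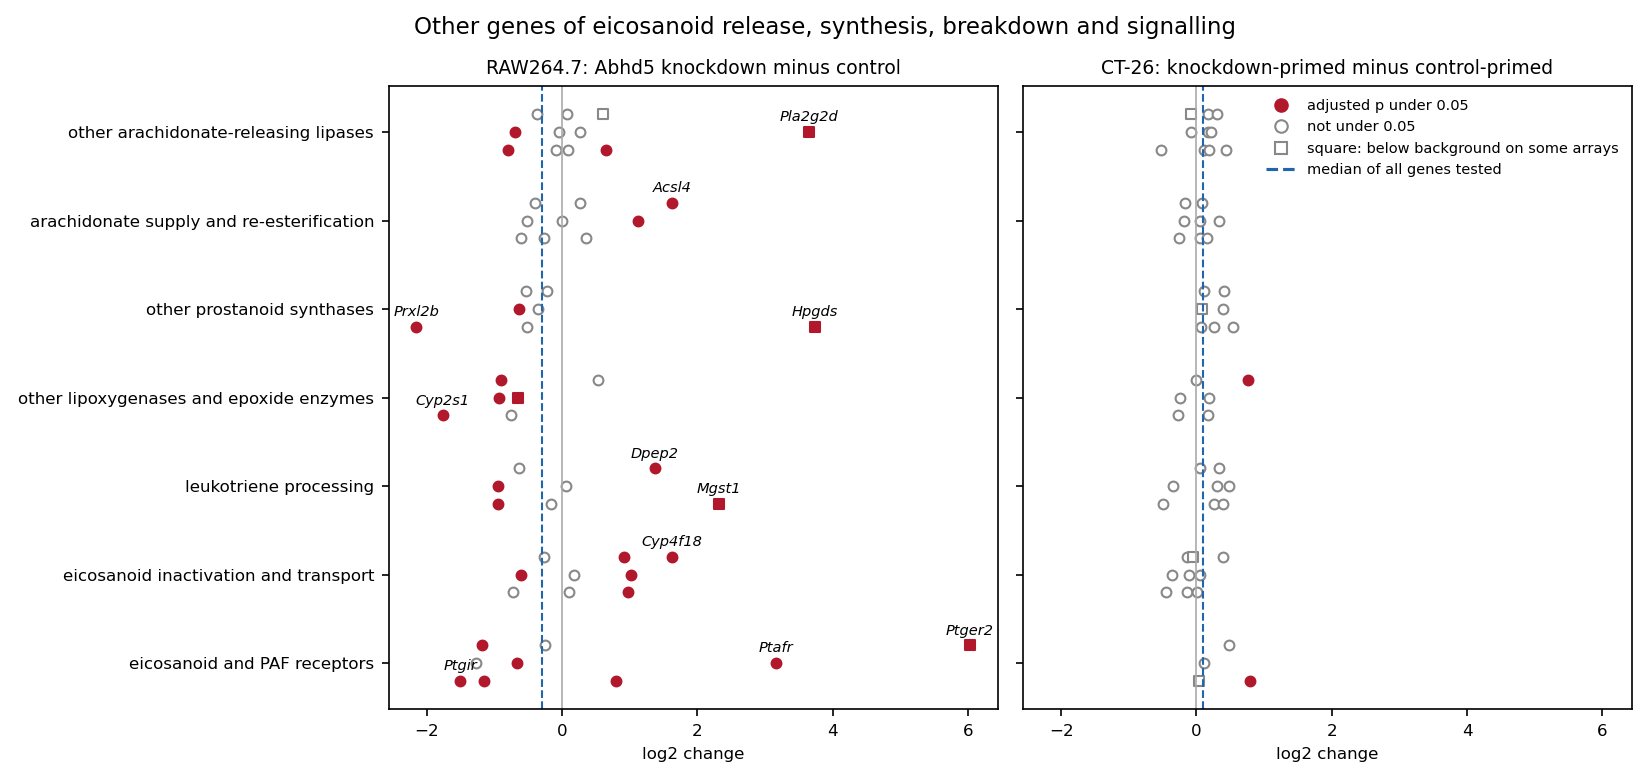
Log2 change (horizontal axis) of each tested gene of the 7 lists (rows) in RAW264.7 cells, knockdown minus control, and in CT-26 cells, knockdown-primed minus control-primed. Filled points passed an adjusted p of 0.05, squares had arrays below background, and the dashed line is the median of all genes tested; RAW264.7 changes run past 3 for Pla2g2d, Hpgds, Ptafr and Ptger2, and 2 CT-26 points are filled.

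In CT-26 cells the 2 of the 76 genes that passed were Ephx2, an epoxide hydrolase, with a mean of -0.65 ± 0.31 after knockdown priming and -1.41 ± 0.04 after control priming (SD, n = 3, change 0.77 ± 0.18 SE, limma adjusted p = 0.0440), and the prostaglandin D2 receptor gene Ptgdr2, with 0.78 ± 0.22 after knockdown priming and -0.01 ± 0.10 after control priming (change 0.79 ± 0.17 SE, adjusted p = 0.0321). Ptgdr2 went the other way in RAW264.7 cells (-0.67 ± 0.17 SE, adjusted p = 0.0283, 0.187 blocking on slide), and the 2 changes differed by -1.46 ± 0.22 (SE, adjusted p = 0.00112).

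Likeness of pattern was measured as the root mean square distance between the centred log2 levels of 2 genes over the 12 arrays, among 15537 genes with a symbol. Ptgs2 was nearest to Fbxl13, Fblim1 and Slc37a3, at distances of 0.26, 0.27 and 0.27. Alox5, whose CT-26 values lay below background, was nearest to Lonrf3, Batf and Rab32 (0.16, 0.18 and 0.19), Alox5ap to Aldh3b1 (0.20) and Ltc4s to Cotl1 (0.16). The nearest to other members were Bsnd for Pla2g4a (0.12), Ppp1r7 for Lta4h (0.08) and Net1 for the downstream Ptges probe (0.08), as a description of these arrays.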

How the data were processed

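Per the labels' protocols, RNA was prepared with TRIzol, linearly amplified and turned into Cy3-labelled cDNA. Agilent Feature Extraction 10.7.3.1 read the arrays, per the file headers, and the deposited scanner files hold a linear intensity per spot, background-corrected within the array, with mm9 probe positions. The deposited value table held log2 values scaled to the 75th percentile for the 6 RAW264.7 arrays, with column medians of -4.02, -3.94 and -3.93 for knockdown and -3.81, -3.53 and -3.90 for control. For the 6 CT-26 arrays the authors deposited linear intensity values in the same table, with medians of 226.1, 131.7 and 174 for knockdown-primed and 272.6, 276 and 274.4 for control-primed. Scale and centring were read from these values, since no source states them, and 5 CT-26 columns matched another replicate of their group, so the table served as an alternative only.

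Control and outlier spots were left out, spots of a probe were averaged, and log2 signals were centred on each array's 75th percentile. Gene names came from RefSeq (GRCm38.p6) through accessions for 26762 probes and symbols for 3819, while 25100 kept the array's name. A gene was represented by its brightest probe among those detected above background throughout a group and tested where all 3 arrays of either group were well above background; all probes were also fitted. Comparisons used limma 3.58.1 in R 4.3.3 (lmFit, eBayes, two-sided, Benjamini-Hochberg over all genes or probes tested, threshold 0.05), each line's on its own 6 arrays and the others on all 12. The fit was tested on simulated data. SE and intervals are those of the fit, n = 3 per group. Named genes were the members, Abhd5, up to 3 genes per list and comparison with the smallest p, and the nearest 3 by pattern; Pla2g4b, Alox12b, Mgst1, Ptges2, Ptges3, Ptgir and Ptger4 were named beside them after their values were seen. The members and lists were chosen with earlier results of these data known. Precision is limited by the number of arrays.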

Additional observations from a re-analysis of the deposited data

Results flagged for a closer look

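The change in RAW264.7 cells (knockdown minus control) and the change in CT-26 cells (knockdown-primed minus control-primed) differed, by an interaction test in limma over all 12 arrays, for Ptgs2 (2.11 on the log2 scale), for the upstream Ptges probe (2.64), for Tbxas1 (-0.77) and for Ltc4s (0.71). The difference is the RAW264.7 change minus the CT-26 change. With single arrays left out it lay between 1.84 and 2.30 for Ptgs2 and between 2.42 and 2.87 for the upstream Ptges probe, with every fit past the threshold. For Tbxas1 it lay between -0.89 and -0.65, with adjusted p up to 0.0669, and for Ltc4s between 0.61 and 0.88, with adjusted p up to 0.0924. All 6 CT-26 arrays shared slide 3, so an additive slide effect cancels in the CT-26 change. It does not cancel in the RAW264.7 change, because slide 1 held control arrays only. Blocking on slide kept the calls of Ptgs2 and the upstream Ptges probe, whose limma adjusted p was at most 0.0120 and 0.00444 over all settings. The calls of Tbxas1 and Ltc4s were lost in that fit.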

How the results depend on the processing

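With the slide as a block, 1 member passed in RAW264.7 cells in place of 3, and 1 in the difference between the cell lines in place of 3; the cause was not tested beyond the slide term itself, since slide 1 held control arrays only. Leaving out single arrays gave 2 to 4 members in RAW264.7 cells, 0 in CT-26 cells, 1 to 4 in the difference between lines and 7 to 8 between RAW264.7 controls and control-primed CT-26 cells. The difference fell to 1 member without RAW264.7 knockdown replicate 2, without control-primed CT-26 replicates 1 or 2 and without knockdown-primed CT-26 replicate 2. The replicate numbers did not pair the samples (correlations of same-numbered deviations -0.018 to 0.043 in RAW264.7 and -0.208 to -0.051 in CT-26 cells). With the replicate block, members passing numbered 2, 0, 2 and 7 in these 4 comparisons, and Ltc4s was the only member whose call changed. The dim second Tbxas1 probe reversed to 0.17 in CT-26 cells after normexp; the cause was not tested. Over all genes, RAW264.7 calls numbered 5856, against 3762 with median centring, 2673 without the filter, 1173 with the slide as a block and 1859 on slide 2 alone, and single arrays left out gave 1703 to 7391. CT-26 calls numbered 1548, against 41 without the filter and 919 with the replicate block, with 92 to 2948 when single arrays were left out (92 without control-primed replicate 3). Calls on the difference numbered 8379, against 2376 with the slide as a block and 4961 to 10071 with single arrays left out. Medians of all RAW264.7 changes were -0.30, and -0.06, -0.08 and -0.37 with median centring, quantile normalisation and normexp. Signals near background limit Pla2g7 in RAW264.7 cells, Alox5 in CT-26 cells and the second Tbxas1 probe.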
